A study of Mus musculus with 9 samples.

Results

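The HOX genes are the 39 protein-coding mouse genes whose symbols consist of Hox, a cluster letter from a to d and a paralog number. All 39 were found among the 49671 Ensembl genes counted in 9 RNA-seq libraries of melanocyte-lineage cells, and 37 of them had counts high enough to be tested. Hoxa13 and Hoxd1 did not pass the filter on low counts. The cells were sorted from the dermis of body skin of female C57BL/6 mice as KIT+CD45-, that is, positive for the receptor KIT and negative for the immune cell marker CD45. The groups were melanoblasts, which are precursors of pigment cells and sit in the developing hair follicles, at postnatal day 0.5 (n = 3), quiescent melanocyte stem cells (McSC) of adult mice at 8 to 10 weeks (n = 4) and quiescent McSC of aged mice at 24 months (n = 2). Adult and aged skin was taken in telogen, when hair follicles rest. The labels name no mutation and no treatment. The melanoblast and adult groups came from an in-house C57BL/6J colony and the aged mice from the NIA Aged Rodent Colony at 21 months of age, so age and colony cannot be told apart. Each library held cells pooled from several animals, and p-values measure the spread between such pools.

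HOX proteins are homeodomain transcription factors that record the position of a cell along the body axis. Paralog numbers follow the order of the genes within each cluster: low numbers are switched on early and mark anterior levels, and high numbers are switched on late and mark posterior levels and the ends of the limbs. HOX proteins bind DNA together with TALE partners of the PBX and MEIS families, Polycomb complexes keep unused HOX genes silent, and Trithorax and MLL complexes keep used ones active. Trunk neural crest, from which body melanocytes derive, and skin fibroblasts both carry a HOX code that reflects where in the body they lie. On build mm10 with the GENCODE M21 annotation, the Hoxa cluster lies on the minus strand of chromosome 6 (with Hoxa13 ending at 52260880). Hoxb lies on the plus strand of chromosome 11 (96194316 at Hoxb13 to 96368256 at Hoxb1), Hoxc on the plus strand of chromosome 15 (102921103 at Hoxc13 to 103036852 at Hoxc4) and Hoxd on the plus strand of chromosome 2 (74668310 at Hoxd13 to 74765142 at Hoxd1).

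Promoter windows were available for 22 of the 39 genes in the RefSeq table (build GRCm38.p6), each running from 250 bases before to 50 bases after a transcript start. Hoxb6, Hoxc8 and Hoxc13, which rose from melanoblasts to adult McSC in every setting tried, had no window in that table. Of the genes with a window, 4 are shown. Hoxa5 and Hoxa7 also rose in every setting. Hoxd8 had higher values in every adult library than in any other, and Hoxb4 had the highest mean level in melanoblasts. Capitals mark CpG dinucleotides, whose density differs among the windows.
Hoxa5, chr6:52204538-52204837, minus strand: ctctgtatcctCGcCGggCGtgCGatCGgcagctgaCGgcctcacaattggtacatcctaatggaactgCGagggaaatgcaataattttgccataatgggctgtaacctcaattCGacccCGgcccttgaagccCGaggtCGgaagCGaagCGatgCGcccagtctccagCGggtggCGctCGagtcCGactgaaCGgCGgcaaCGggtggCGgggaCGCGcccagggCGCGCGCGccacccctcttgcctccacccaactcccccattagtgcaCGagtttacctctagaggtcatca
Hoxa7, chr6:52218524-52218823, minus strand: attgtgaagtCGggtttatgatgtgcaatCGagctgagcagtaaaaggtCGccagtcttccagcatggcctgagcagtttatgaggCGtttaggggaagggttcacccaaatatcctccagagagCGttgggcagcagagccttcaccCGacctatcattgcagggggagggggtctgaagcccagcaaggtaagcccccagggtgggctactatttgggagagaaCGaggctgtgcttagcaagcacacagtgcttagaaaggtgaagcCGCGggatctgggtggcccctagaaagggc
Hoxd8, chr2:74704365-74704664, plus strand: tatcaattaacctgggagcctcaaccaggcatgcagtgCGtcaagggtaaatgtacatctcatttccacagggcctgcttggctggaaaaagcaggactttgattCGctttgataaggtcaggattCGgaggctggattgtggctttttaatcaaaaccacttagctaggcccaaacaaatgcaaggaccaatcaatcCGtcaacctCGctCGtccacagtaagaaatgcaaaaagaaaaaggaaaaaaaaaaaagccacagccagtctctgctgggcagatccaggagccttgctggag
Hoxb4, chr11:96318017-96318316, plus strand: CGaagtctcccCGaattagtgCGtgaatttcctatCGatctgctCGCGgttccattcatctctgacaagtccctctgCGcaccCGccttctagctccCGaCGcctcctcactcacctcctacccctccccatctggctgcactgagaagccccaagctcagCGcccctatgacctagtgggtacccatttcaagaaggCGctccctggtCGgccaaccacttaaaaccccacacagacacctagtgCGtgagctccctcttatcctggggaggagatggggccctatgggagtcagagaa

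The Hoxa5 window held 29 CpG dinucleotides with 61.7% G or C, and the Hoxd8 window 6 with 46.7%. Hoxa7 had 9 CpG and Hoxb4 14, and the difference of Hoxb4 between melanoblasts and adult McSC did not pass the test. Over the 24 HOX windows the median was 14.5 CpG, against 7 over all 32851 windows of the table. The motif TGATNNAT, the core that HOX and PBX proteins bind together, was searched on both strands and occurred in 4 of the 24 HOX windows (16.7%) and in 8.8% of all windows. TAATTA, a homeodomain core, occurred in 2 of 24 (8.3%) against 5.3% of all, and a match to it can share bases with TGATNNAT. CACGTG, the E-box, occurred in 5 of 24 (20.8%) against 7.2%, and TATAAA in 4 of 24 (16.7%) against 13.6%. None of these letters occurred in the 4 windows shown.

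The clusters also encode microRNAs, which pair with messages through bases 2 to 8, the seed. They are shown as regulators encoded within the clusters, with the seed in capitals.
mmu-miR-196a-5p: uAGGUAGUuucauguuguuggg
mmu-miR-196b-5p: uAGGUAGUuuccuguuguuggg
mmu-miR-10a-5p: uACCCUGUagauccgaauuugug
mmu-miR-10b-5p: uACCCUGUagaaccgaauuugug
These form 2 seed groups, AGGUAGU for miR-196 and ACCCUGU for miR-10. In the longest annotated 3' UTR of each gene, the complement of the miR-196 seed occurred in 9 of 39 HOX genes and in 6.1% of 21007 protein-coding genes, with median lengths of 966 and 961 bases. For the miR-10 seed it was 4 of 39 HOX genes against 12.5%. Matches for miR-196 are shown for the 5 genes that rose, 1 each, with the number of its 22 positions in Watson-Crick pairs: 14 for Hoxa7 and Hoxb7, 12 for Hoxb6 and Hoxc8 and 11 for Hoxa5. Capitals mark Watson-Crick pairs, and G:U pairs are in lower case.
Hoxa7: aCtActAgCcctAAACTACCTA
Hoxb7: CtgtAaAAaAatAtACTACCTA
Hoxb6: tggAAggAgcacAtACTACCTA
Hoxc8: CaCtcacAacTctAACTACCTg
Hoxa5: atatttttatTcAAACTACCTA
Hoxa7 alone had 4 matches. Of the 9 genes with a match, 5 rose from melanoblasts to adult McSC and 4 did not pass the test. Over all tested HOX genes 12 of 37 rose (32.4%), and the difference between these shares was not tested. Mature miRNAs were not measured here, and the counts of their hairpin genes did not exceed 9 in any library.

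The libraries held between 12594770 and 33710117 counts, of which HOX genes took 447 to 677 counts in the melanoblast libraries, 1254 to 2432 in the adult and 1181 and 2146 in the aged libraries. Levels are given as CPM, counts scaled to library size with TMM factors (trimmed mean of M values), and comparisons between genes as CPM per kb of exon. Mitochondrial rRNA took 21.5% to 37.6% of counts. Markers of the melanocyte lineage summed to between 14470 and 26260 CPM in melanoblasts, 4470 and 10920 in adult and 7468 and 8977 in aged McSC, with Dct the most abundant. All 10 lineage markers were detected, and 8 of 10 were lower in adult McSC than in melanoblasts. In bulk samples, fewer cells of a type and less RNA per cell cannot be told apart. For comparison with genes best known from sensory neurons of the nose, 1429 olfactory and vomeronasal receptor genes were taken. Their mean level per gene was 0.0517 to 0.0868 CPM per kb in melanoblasts, 0.124 to 0.216 in adult and 0.184 and 0.218 in aged McSC, so these levels were higher in every McSC library than in every melanoblast library. Between 10 and 18 HOX genes per library lay above the 95th percentile of the receptor genes, and the others lay at or below it.

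HOX levels were low in all cells, and paralogs 4 to 8 held the largest part of the sum in every library but melanoblast replicate 3. Summed over the 39 genes, they stood at 12.2, 9.28 and 12.5 CPM per kb in the melanoblast libraries, at 30.5, 21.8, 41.2 and 31.8 in the adult libraries and at 33.2 and 25.7 in the aged libraries, with no overlap between melanoblasts and either McSC group. Hoxc8, which patterns the lower thorax, was the HOX gene with the highest count in all 6 McSC libraries. In melanoblasts Hoxb4, best known as a promoter of blood stem cell growth, led in replicates 1 and 2 and Hoxa9 in replicate 3. By mean level per kb, the first 8 over the 3 groups were Hoxc8, Hoxa7, Hoxb6, Hoxa5, Hoxb4, Hoxc13, Hoxd8 and Hoxb7, and 7 of these 8 remained when the longest transcript served as length. Of them, 7 belong to paralogs 4 to 8, and Hoxc13, which controls hair keratin genes in the follicle, stands apart at the posterior end of its cluster. By group means the order differed. In adult McSC 7 of the first 8 were central. In melanoblasts 5 were, and Hoxd9, Hoxa9 and Hoxb9 were the others. In aged McSC 4 were, beside Hoxc13, Hoxa9, Hoxa11 and Hoxc9. Libraries of a group differed for some of these genes, so the orders are loose. Hoxb9 stood at 0.169, 0.263 and 1.01 CPM per kb in the melanoblast libraries. In aged replicates 1 and 2, Hoxa11 stood at 1.66 and 0.606 CPM per kb and Hoxc9 at 1.79 and 0.428. Averaged over the groups, Hoxa13, Hoxd1 and Hoxd3 were the lowest, with group means between 0.0435 and 0.139 CPM per kb.

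**Figure D1:**
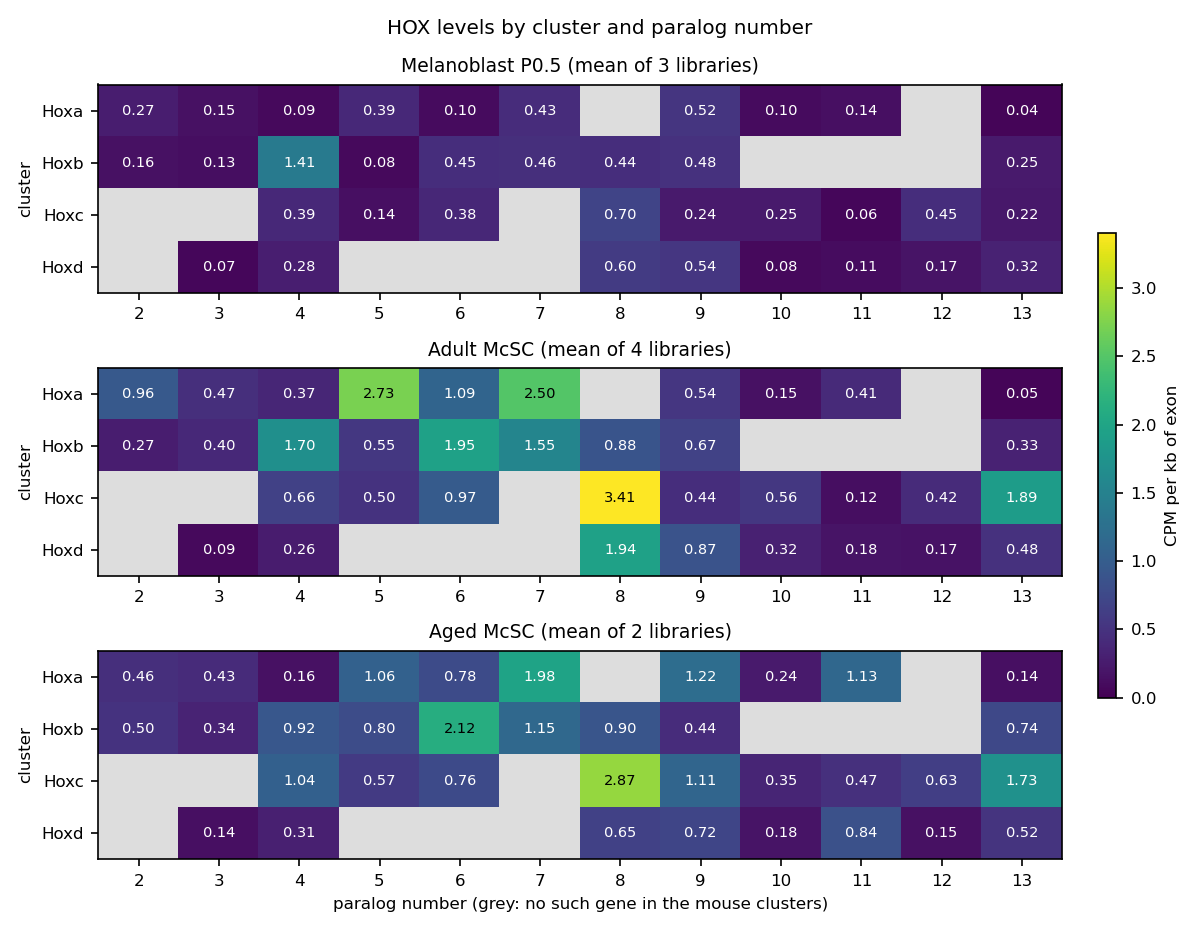
Mean CPM per kb of exon for each HOX gene (number and color), with clusters in rows and paralog numbers 2 to 13 in columns, in melanoblasts (3 libraries), adult McSC (4) and aged McSC (2); grey cells are positions without a gene. Hoxb4 is the brightest cell in melanoblasts (1.41), and Hoxc8 in adult (3.41) and aged (2.87) McSC.

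Between newborn melanoblasts and adult McSC, the HOX genes that differed were higher in adult McSC, mostly those of the central paralogs. Of the 37 genes tested, 12 were higher in adult McSC and none was lower (edgeR quasi-likelihood test, Benjamini-Hochberg adjusted over all 31961 genes tested, threshold 0.05), while 14 had an unadjusted p under the same value. Over all genes, 15.1% were higher and 18.3% lower. Among the 970 receptor genes tested, 27.8% were higher and 1 gene was lower, so the share of HOX genes that were higher, 32.4%, lay above that of all genes and near that of the receptor genes. The median log2 fold change was 0.99 for the HOX genes, 0.39 for all genes and 1.71 for the receptor genes. The 12 were Hoxa3, Hoxa5, Hoxa6 and Hoxa7, Hoxb3, Hoxb5, Hoxb6 and Hoxb7, Hoxc5, Hoxc8 and Hoxc13, and Hoxd8. By position, 2 of 7 anterior genes (paralogs 1 to 3), 9 of 15 central genes (4 to 8) and 1 of 15 posterior genes (9 to 13) were called. The median log2 fold change was 0.97, 1.84 and 0.69 in these classes. The central median thus lay near the receptor median of 1.71, with 9 of the 15 central genes above the latter. Each level was also divided by the receptor mean of its library. The log2 ratio of adult to melanoblast means was then positive for all 12, from 0.14 for Hoxd8 to 2.14 for Hoxa6. These 12 were picked for their rise in the same libraries, so the sign is no separate check on them. Over the 37 tested genes this ratio was positive for 17 and negative for 20, with a median of -0.17. Calls were kept in every alternative that tested the gene for Hoxa5, Hoxa6, Hoxa7, Hoxb5, Hoxb6, Hoxc8 and Hoxc13, and were lost in at least 1 for the other 5. With TMM factors taken from abundant genes, the median of all genes moved from 0.39 to 1.15. Higher against lower calls over all genes moved from 4836 against 5840 to 10416 against 1985. In that setting 16 of the 37 HOX genes were higher and none lower. This share lay above the 32.6% of all genes but below the 54.3% of receptor genes that were higher there.

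**Figure D2:**
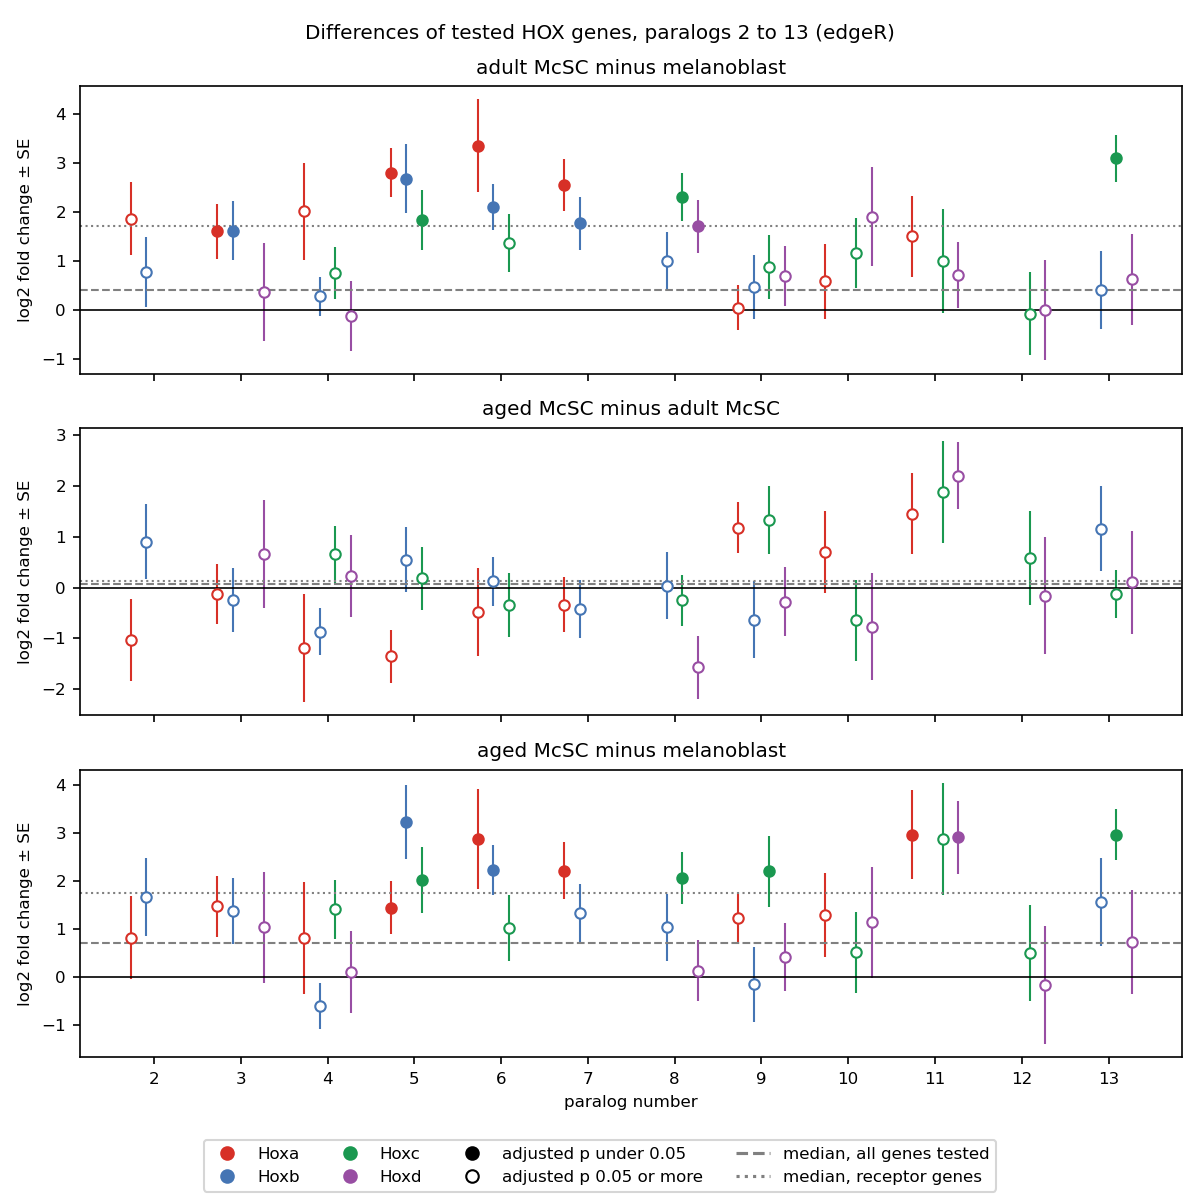
Log2 fold change with its standard error for the tested HOX genes of paralogs 2 to 13, by paralog number and cluster (color), in the 3 comparisons; filled points passed the adjusted threshold, and lines mark the medians of all genes (dashed) and of receptor genes (dotted). Filled points gather at paralogs 5 to 8 in the comparison of adult McSC with melanoblasts, and none is filled in the comparison of aged with adult McSC.

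Paralogs 1 to 4 held a pair of called genes and the gene that was most abundant in melanoblasts. Hoxa3, needed for organs of the pharynx such as the thymus, stood at 0.560, 0.313 and 1.86 CPM in the melanoblast libraries. It stood at 3.23, 1.97, 3.38 and 2.62 CPM in the adult and at 2.06 and 3.06 in the aged libraries. Its adult and melanoblast values did not overlap, with a 3.04-fold difference (log2 1.60 ± 0.56 SE, edgeR adjusted p = 0.0305). Hoxb3, a hindbrain gene, stood at 0.746, 0.261 and 0.652 CPM in melanoblasts, 1.52, 1.75, 2.06 and 1.46 in adult and 1.25 and 1.62 in aged McSC, again without overlap (3.06-fold, log2 1.61 ± 0.60 SE, edgeR adjusted p = 0.0404). These were the calls closest to the threshold. The call for Hoxa3 ended when melanoblast replicate 1 or 2 or adult replicate 1, 3 or 4 was left out (edgeR adjusted p from 0.0525 to 0.108), and the call for Hoxb3 without melanoblast replicate 2, adult replicate 2, 3 or 4 or aged replicate 2, or with a replicate block (0.0502 to 0.122, block 0.0811). Hoxd3, the third member of that paralog group, had means of 0.276 and 0.361 CPM in melanoblasts and adult McSC and was not called. Hoxb4 stood at 4.48, 4.22 and 2.16 CPM in melanoblasts, at 3.50, 3.46, 5.56 and 4.90 in adult and at 2.66 and 2.08 in aged McSC. Those ranges overlapped between melanoblasts and adult McSC, and the difference did not pass (log2 0.27 ± 0.39 SE, edgeR adjusted p = 0.610), except with factors from abundant genes (log2 1.11, adjusted p = 0.0447). None of the 4 genes of paralog group 4 was called.

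Paralog group 5 was called in full, and Hoxa5, which acts in the lung and neck, gave 1 of the steadiest calls. It stood at 0.498, 0.625 and 1.05 CPM in melanoblasts, 5.64, 3.63, 7.75 and 3.45 in adult and 2.30 and 1.67 in aged McSC. Every adult library lay above every melanoblast library (6.96-fold, log2 2.80 ± 0.50 SE, edgeR adjusted p = 0.000113). Hoxb5, a neural crest regulator of the Ret receptor gene in the gut, stood at 0.187, 0.208 and 0.301 CPM in melanoblasts, 1.05, 1.54, 2.14 and 1.37 in adult and 3.63 and 0.808 in aged McSC (6.40-fold from melanoblasts to adults, log2 2.68 ± 0.70 SE, edgeR adjusted p = 0.00467). Its aged libraries stood on either side of the adult ones. Hoxc5 stood at 0.373, 0.417 and 0.502 CPM in melanoblasts, 2.41, 1.50, 1.36 and 0.956 in adult and 1.69 and 1.85 in aged McSC (3.57-fold, log2 1.84 ± 0.61 SE, edgeR adjusted p = 0.0235). Its call ended without melanoblast replicate 1 (edgeR adjusted p = 0.0594) or adult replicate 1 (0.0712).

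In paralog groups 6 and 7 the Hoxa and Hoxb members were called. Hoxa6 was barely detected in melanoblasts, with counts of 0, 2 and 3, and stood at 0.233, 1.02, 1.57 and 0.998 CPM in adult and 0.726 and 0.635 in aged McSC. Its fitted log2 difference of 3.35 ± 0.95 SE (edgeR adjusted p = 0.00891) rests on those few counts and depends on the prior count. Hoxb6 stood at 0.622, 0.730 and 1.30 CPM in melanoblasts, 3.15, 2.73, 5.52 and 3.95 in adult and 4.07 and 4.27 in aged McSC (4.29-fold, log2 2.10 ± 0.47 SE, edgeR adjusted p = 0.00123), with no overlap. Hoxc6, the third of the group, ranged from 0.301 to 1.56 CPM in melanoblasts and from 1.50 to 3.23 in adult McSC, overlapped, and was not called (edgeR adjusted p = 0.0782). Hoxa7, a gene of the trunk skeleton that is also known in cultured keratinocytes, stood at 1.68, 0.104 and 1.91 CPM in melanoblasts, 6.69, 4.36, 9.56 and 8.19 in adult and 5.81 and 5.60 in aged McSC (5.86-fold, log2 2.55 ± 0.54 SE, edgeR adjusted p = 0.000795). Melanoblast replicate 2 was low for this gene, and all McSC libraries lay above all melanoblast libraries. Hoxb7 stood at 0.622, 0.886 and 0.602 CPM in melanoblasts, 2.57, 1.45, 3.05 and 2.54 in adult and 1.77 and 1.79 in aged McSC (3.40-fold, log2 1.76 ± 0.54 SE, edgeR adjusted p = 0.0137). It fell just short without adult replicate 3 (edgeR adjusted p = 0.0519) and in the fit with a replicate block (0.0508).

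Paralog group 8 was split by cluster. Hoxc8 stood at 3.86, 1.77 and 0.301 CPM in melanoblasts, 7.58, 7.43, 11.5 and 12.1 in adult and 7.58 and 8.66 in aged McSC. Melanoblasts spread widely but stayed below every McSC library (4.95-fold from melanoblasts to adults, log2 2.31 ± 0.49 SE, edgeR adjusted p = 0.000975). Hoxd8, expressed in trunk and limb bud, stood at 1.12, 3.28 and 0.502 CPM in melanoblasts, 4.16, 3.80, 9.81 and 3.57 in adult and 1.57 and 2.02 in aged McSC (3.25-fold, log2 1.70 ± 0.54 SE, edgeR adjusted p = 0.0170). Adult replicate 3 was far above the other adult libraries, and the call ended without it (edgeR adjusted p = 0.114) and without melanoblast replicate 1 (0.0720). Hoxb8, which shares this paralog number, had overlapping values, from 0.156 to 1.86 CPM in melanoblasts and from 1.50 to 3.75 in adult McSC (edgeR adjusted p = 0.208).

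Among the posterior genes only Hoxc13 was called in adult McSC. It stood at 0.436, 0.677 and 0.501 CPM in melanoblasts, 3.62, 2.90, 5.15 and 6.90 in adult and 4.68 and 3.81 in aged McSC, an 8.52-fold difference between melanoblasts and adults without overlap (log2 3.09 ± 0.49 SE, edgeR adjusted p = 2.9e-05). That was the smallest p among the HOX genes. The other tested genes of its paralog group, Hoxb13 and Hoxd13, had means of 0.552 and 0.797 CPM in melanoblasts and 0.728 and 1.20 in adult McSC and were not called. Keratinocyte markers moved the same way: all 10 were higher in adult McSC than in melanoblasts, their sum ran from 77.5 to 248 CPM in melanoblasts, 1010 to 2242 in adult and 838 to 983 in aged McSC, led by Dsp and, in adult McSC, by Krt5. None of these markers was at 0 in any library. Adult replicate 3 had both the highest keratinocyte marker sum and the highest HOX sum. The part of keratinocyte RNA in the HOX levels was not tested. Fibroblast markers were lower in 5 and higher in 1 of 10, which became 1 lower and 2 higher with factors from abundant genes (589 to 2152 CPM in melanoblasts, 486 to 955 in adult and 127 to 241 in aged McSC, led by Col3a1, Col1a2 and Dcn in turn). Schwann cell markers were higher in 4 of 8 (220 to 316, 616 to 933 and 270 to 441 CPM), and markers of macrophages and dendritic cells in 4 of 6 (24.0 to 40.0, 46.7 to 67.9 and 62.2 to 97.6 CPM, with Cd68 first). Endothelial markers were higher in 3 of 6 (34.8 to 75.2, 52.3 to 201 and 35.3 to 36.9 CPM, with Pecam1 first) and skeletal muscle markers in 1 of 6 (2.66 to 7.17, 4.57 to 10.2 and 11.6 to 15.9 CPM, led by Pax7 in melanoblasts and aged McSC and by Tnnt3 in adult McSC). Mast cell markers were lower in 2 of 5 (17.7 to 28.9, 5.07 to 7.71 and 3.98 to 4.80 CPM, led by Cpa3 and, in aged McSC, by Tpsb2), as were those of pericytes and smooth muscle in 2 of 6, which became 2 higher and 0 lower with factors from abundant genes (140 to 265, 104 to 122 and 82.9 to 111 CPM, with Cspg4 first). Between aged and adult McSC, 4 Schwann cell and 3 fibroblast markers were lower and no other marker was called. Their parts in the HOX levels were not tested either.

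**Figure D3:**
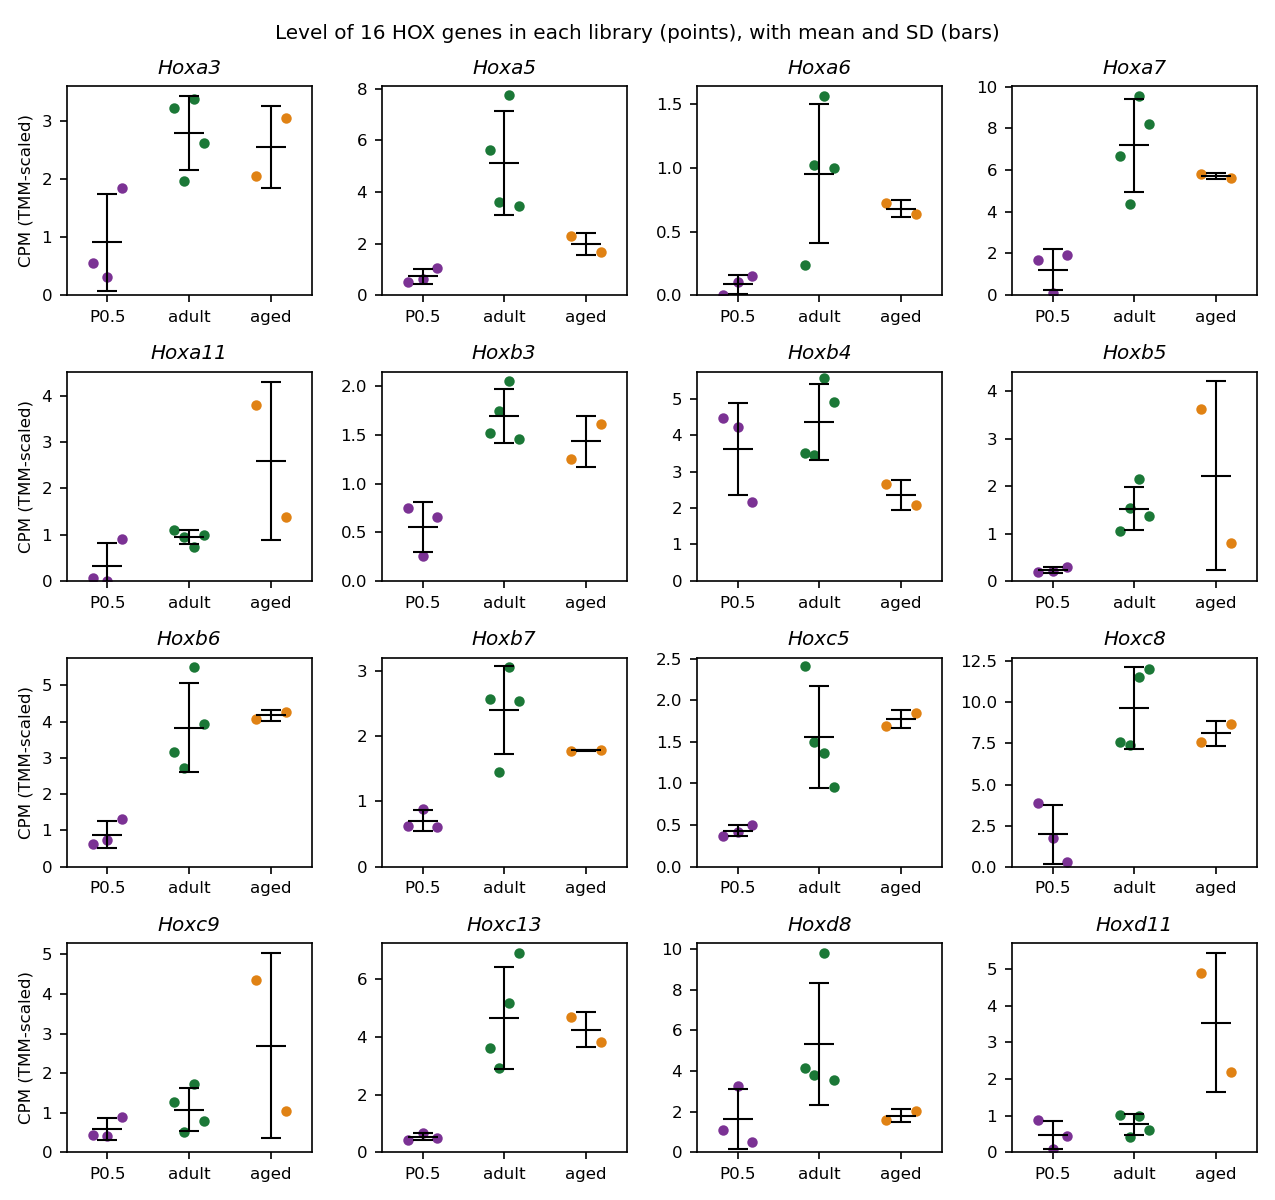
CPM in each library for the 16 HOX genes named with all their values, with points for melanoblasts (P0.5, 3 libraries), adult (4) and aged (2) McSC and bars for mean ± SD. For Hoxa5, Hoxb6, Hoxc8 and Hoxc13 all adult points lie above all melanoblast points, Hoxb4 overlaps, and Hoxd11 is high in both aged libraries.

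The 23 remaining HOX genes had group means from 0.108 to 2.91 CPM in melanoblasts, 0.122 to 2.99 in adult and 0.187 to 6.80 in aged McSC, and 9 of them had at least 1 library without a count. A library without a count allows up to 3 counts, or 0.117 to 0.187 CPM, from counting error alone. Hoxa9, a gene of axial and blood development, was the highest of the 23. In all, 15 of the 39 genes had every adult library above every melanoblast library and none the reverse. All 15 are tested genes, 40.5% of the 37, against 19.5% of all genes tested that lay wholly above (19.8% below) and 40.9% of the receptor genes tested. Those 15 were the 12 called genes with Hoxa4, Hoxc10 and Hoxd10.

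No HOX gene passed the test between aged and adult McSC. Of 37 genes, 0 were higher and 0 lower by edgeR, against 0.0532% higher and 0.25% lower over all genes, and 4 had an unadjusted p under 0.05. DESeq2 called 0 of the 13 HOX genes that passed its own filter, and limma voom with quality weights called 1. The HOX median log2 fold change was 0.04, against 0.08 for all genes. Hoxd11, which with Hoxa11 builds the forearm and kidney, showed the widest fitted difference. It stood at 0.871, 0.104 and 0.451 CPM in melanoblasts, 1.01, 0.427, 0.989 and 0.623 in adult and 4.88 and 2.19 in aged McSC. Both aged libraries lay above all 7 others, but the test was not passed (log2 2.21 ± 0.67 SE, edgeR adjusted p = 0.248, range over the alternatives 0.0177 to 0.956). The other 3 with an unadjusted p under 0.05 were Hoxa9, Hoxa5 and Hoxd8. Hoxa9 stood at 2.68, 0.834 and 5.22 CPM in melanoblasts, 3.42, 1.75, 2.84 and 3.95 in adult and 7.42 and 6.18 in aged McSC (log2 1.19 ± 0.50 SE, edgeR adjusted p = 0.442). Hoxa5 and Hoxd8 had lower values in aged than in adult McSC (log2 -1.36 ± 0.52 SE and -1.57 ± 0.62 SE, edgeR adjusted p = 0.402 and 0.409). Among all 39 genes, both aged libraries lay above all adult libraries for Hoxa9, Hoxa10, Hoxa11, Hoxa13, Hoxb2, Hoxc11 and Hoxd11, and below them for Hoxa2, Hoxa4, Hoxa5, Hoxb4 and Hoxd8. Of the 37 tested genes, which leave out Hoxa13, 6 lay above (16.2%) and 5 below (13.5%), near the 15.5% and 12.2% of all genes tested.

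Aged McSC were also set against the same melanoblast libraries, so the calls are not independent of those for adult McSC. Here 11 of 37 genes were higher and 0 lower, and 17 had an unadjusted p under 0.05, beside 20.4% higher and 20.3% lower over all genes and 25.6% higher among receptor genes. The 11 were Hoxa5, Hoxa6, Hoxa7 and Hoxa11, Hoxb5 and Hoxb6, Hoxc5, Hoxc8, Hoxc9 and Hoxc13, and Hoxd11. Hoxc13 again had the smallest p (7.81-fold, log2 2.96 ± 0.53 SE, edgeR adjusted p = 0.000132), and Hoxb6, Hoxc8 and Hoxc13 were called in all 19 settings. Hoxd8, at 1.80 CPM in aged McSC and 1.63 in melanoblasts on average, did not pass (edgeR adjusted p = 0.875). The posterior genes Hoxa11, Hoxc9 and Hoxd11 were called here and, in the main fit, not in the adults. Hoxa11 was called in adults with limma voom (log2 3.37, limma adjusted p = 0.00694). Without melanoblast replicate 3 it was called there too (log2 4.79, edgeR adjusted p = 0.000971). Between aged and adult McSC the main fit called none of these genes (edgeR adjusted p = 0.536 for Hoxa11, 0.501 for Hoxc9 and 0.248 for Hoxd11). Hoxa11 stood at 0.0622, 0 and 0.903 CPM in melanoblasts, 1.09, 0.940, 0.742 and 0.998 in adult and 3.79 and 1.39 in aged McSC (7.78-fold, log2 2.96 ± 0.93 SE, edgeR adjusted p = 0.0146). Hoxc9, which sets thoracic motor neuron identity, stood at 0.436, 0.417 and 0.903 CPM in melanoblasts, 1.28, 0.513, 1.73 and 0.790 in adult and 4.36 and 1.04 in aged McSC (4.59-fold, log2 2.20 ± 0.74 SE, edgeR adjusted p = 0.0223). Aged replicate 1 was the high library for both. Without it, Hoxa11 (edgeR adjusted p = 0.201), Hoxc9 (0.550), Hoxd11 (0.112), Hoxb5 (0.190) and Hoxa5 (0.193) no longer passed, nor did Hoxa6 (0.118) and Hoxc5 (0.0815), which left 4 calls. Leaving out melanoblast replicate 3 gave 17. Both aged libraries lay above every melanoblast library for 22 of the 37 tested genes (59.5%), against 40.4% of all genes tested and 62.2% of receptor genes, and below for none, against 25.8% of all genes tested. With levels divided by the receptor mean of each library, the log2 ratio of aged to melanoblast means was positive for 10 of the 11 called genes. It was -0.05 for Hoxa5, and negative for 21 of the 37. The 11, too, were picked for their rise in the same libraries, so these signs are no separate check.

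The balance along the clusters was described by shares of the summed CPM per kb. Central genes (paralogs 4 to 8) held 54.8%, 72.8% and 44.2% in the melanoblast libraries, 63.1%, 70.8%, 69.7% and 65.9% in the adult and 52.3% and 57.7% in the aged libraries. Posterior genes (9 to 13) held 34.2%, 22.6% and 45.3% in melanoblasts, 28.3%, 20.1%, 23.2% and 24.8% in adult and 38.8% and 32.4% in aged McSC. Adult and aged shares did not overlap for either class, while melanoblasts overlapped with both. Both classes are parts of the same sum, so a higher share of the central genes goes with a lower share of the posterior ones. The aged group had only 2 libraries, and the difference in shares was not tested. By cluster, mean sums were 2.33, 9.47 and 7.92 CPM per kb for Hoxa in melanoblasts, adult and aged McSC, 3.95, 8.47 and 8.40 for Hoxb, 2.83, 8.98 and 9.53 for Hoxc and 2.24, 4.39 and 3.61 for Hoxd. Hoxd was the lowest in every adult and aged library, and its 8 tested genes gave 1 call in adults. In melanoblasts Hoxa was lower than Hoxd in replicates 1 and 2 (2.20 and 1.15 against 2.52 and 2.54 CPM per kb) and higher in replicate 3 (3.62 against 1.67). As a description of likeness, the rank correlation of the 39 levels per kb between libraries had a median of 0.832 within adult McSC (0.755 to 0.880), was 0.735 between the aged pair and had a median of 0.294 within melanoblasts (0.277 to 0.351). Adult and aged libraries correlated with each other at a median of 0.689. Melanoblast libraries correlated with adult ones at a median of 0.560 (0.305 to 0.673) and with aged ones at 0.463 (0.422 to 0.537). Both medians lay above that within melanoblasts, which was the lowest. The melanoblast libraries also held the fewest HOX counts.

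**Figure D4:**
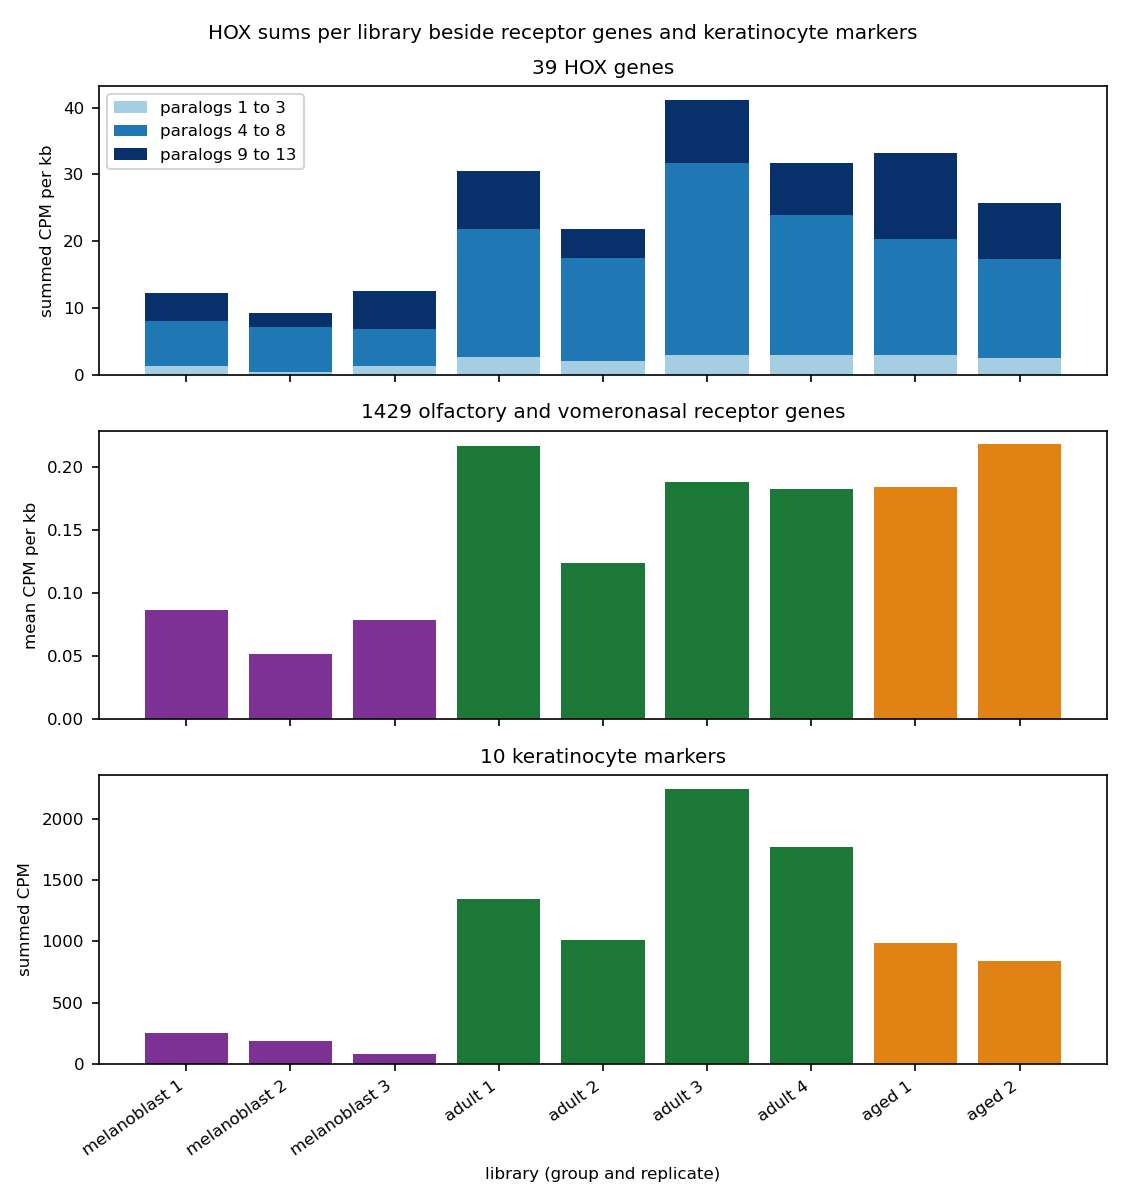
Summed CPM per kb of the 39 HOX genes by paralog class (top), mean CPM per kb of 1429 receptor genes (middle) and summed CPM of 10 keratinocyte markers (bottom) in each of the 9 libraries. All 3 quantities are higher in every McSC library than in every melanoblast library, and adult replicate 3 has the highest HOX and keratinocyte sums.

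Genes that act with or on HOX genes were given from lists. Of 9 TALE cofactors, 0 were higher and 3 lower in adult McSC than in melanoblasts (median log2 fold change -0.25, against 0.39 over all genes). Among them, Pbx2 went from 19.7 ± 5.03 to 10.8 ± 2.34 CPM (SD, n = 3 and n = 4) and Pbx3 from 44.2 ± 9.30 to 28.6 ± 3.46 (edgeR adjusted p = 0.0104 and 0.0307). With factors from abundant genes this count turned to 4 higher and 0 lower, and the log2 difference of Pbx3 turned to 0.17. Of 10 Trithorax and MLL activators, 0 were higher and 6 lower (median -0.77), among them Rbbp5, Ash2l and Psip1 (log2 -1.09, -1.01 and -0.98). That count, too, turned to 4 higher and 0 lower with factors from abundant genes. Of 19 Polycomb genes, 10 were lower, with Rnf2 and Suz12, a catalytic and a core subunit, at log2 -1.24 and -1.34, and 1 was higher (median -0.71). The higher one was Cbx7, a reader of the Polycomb mark, at 7.30 ± 2.51 CPM in melanoblasts (n = 3), 40.1 ± 7.83 in adult (n = 4) and 25.7 ± 8.02 in aged McSC (n = 2; log2 2.46 ± 0.28 SE for adults against melanoblasts, edgeR adjusted p = 3.72e-07). With factors from abundant genes the Polycomb list had 6 higher and 3 lower.

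Retinoic acid, which switches on anterior HOX genes in the embryo, was represented by 15 genes for its synthesis, breakdown and receptors, of which 6 were higher and 2 lower in adult McSC (median 0.90). Scaling on abundant genes turned this to 9 higher and 0 lower. Dhrs3, which turns retinaldehyde back to retinol, rose from 1.46 ± 0.84 CPM (n = 3) to 17.0 ± 2.39 (n = 4; edgeR adjusted p = 3.06e-08). Crabp1, a retinoic acid carrier, went from 0.959 ± 0.83 to 20.9 ± 4.55 CPM (edgeR adjusted p = 2.44e-06), and the receptor Rarg from 6.80 ± 0.77 to 23.2 ± 5.16 (edgeR adjusted p = 1.43e-05). Between aged and adult McSC, the receptor Rxrg was the single gene called in the 8 HOX-related lists, with 8.94 ± 2.40 CPM in adult (n = 4) and 2.05 ± 0.86 in aged McSC (n = 2; log2 -2.10 ± 0.41 SE, edgeR adjusted p = 0.0168). Of 8 Cdx and other axial regulators, Lin28b was higher and Gdf11, a signal for posterior HOX genes, was lower in adults (log2 1.53 and -0.91, list median 0.73). Gdf11 was not among the calls with factors from abundant genes, which gave 4 higher and 0 lower. Of 10 tested non-coding genes of the HOX clusters, 1 was higher, Hoxaas2 (0.450 ± 0.28 to 1.71 ± 0.92 CPM, edgeR adjusted p = 0.0269, list median 1.14). Of 15 tested protein-coding neighbours of the clusters, 2 were higher and 7 lower (median -0.58), with Copz1, Cbx5 and Mtx2 at log2 -1.84, -1.97 and -1.49, and with factors from abundant genes 3 were higher and 3 lower. Of 16 position factors of limb and trunk, Tbx5 and Msx2 were higher (log2 1.87 and 1.69) and Alx1, an axial and craniofacial gene, was lower (log2 -1.15, list median 0.36). With factors from abundant genes 3 were higher and 0 lower.

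Reads of neighbouring genes bear on some members. Exons of 16 of the 39 genes overlap those of another annotated gene, by more than 50% of their length for Hoxd3 (62.8%), Hoxb3 (52.9%) and Hoxd4 (52.3%). Hoxb3 overlaps the antisense gene Hoxb3os, which did not differ between adult McSC and melanoblasts (0.468 and 0.581 CPM, edgeR adjusted p = 0.758). Hoxa3 (27.1%) overlaps Hoxaas2, among others, and Hoxa7 (20.4%) overlaps Hoxaas3. A larger share of Hoxa11 than of Hoxa3 overlaps another gene, the antisense Hoxa11os. Hoxa11os averaged 0.946 CPM in aged McSC and 0.117 in melanoblasts, without passing the test (log2 2.90, edgeR adjusted p = 0.055). Its part in the Hoxa11 call for aged McSC was not tested. The treatment of strand in counting is not given in the sources used here, so reads of such pairs cannot be told apart. Hoxa5, Hoxa6, Hoxb6, Hoxb7, Hoxc8, Hoxc13 and Hoxd8 had no such overlap. Among 733 pairs of HOX genes at separate loci, the longest identical stretch of transcript was 52 bases, shorter than the 126-base reads.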

How the data were processed

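Each library has 1 deposited file, which holds unnormalized whole-number counts by Ensembl gene. Per the labels' protocols, 20 ng of RNA was amplified to cDNA, libraries took 10 PCR cycles and 126-base pairs were read, so counts are not molecule counts, and the limit of 3 counts for a zero covers counting error only. Per the submitters' processing notes, the tools were STAR 2.5.2 (build mm10), DESeq2 1.22.2, Trimmomatic 0.36, SAMtools 1.9 and FastQC 0.11.8. How reads were counted, and with which strand setting, is not given in the sources used here. GENCODE M21 symbols matched 49412 of 49671 genes.

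edgeR 4.0.16 (R 4.3.3) fitted all 9 libraries by group, with TMM factors and filterByExpr. The robust quasi-likelihood F test was adjusted by Benjamini-Hochberg over all 31961 genes within each of 3 comparisons. SE was derived from the F statistic. Scripts were tested on simulated data. The 18 alternatives included limma 3.58.1 and DESeq2 1.42.0. The labels do not say that a replicate number marks a shared animal, batch or day, so the main fit used no pairing. Members and lists were chosen with earlier results of these data known. All values were printed for members called in any comparison and for the 8 most abundant per kb. In each list, up to 3 called genes with the smallest p were named. Hoxa9, Hoxc6, Hoxb8, Hoxd3, Hoxb13 and Hoxd13 were named in addition after their values were seen, as were the genes named for orders without overlap. A few items are not reported here.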

Additional observations from a re-analysis of the deposited data

Results flagged for a closer look

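Adult replicate 3 stood far from the other 3 adult libraries in 3 of the 43 sets of values that could be examined for a distant sample. Chance alone flags about 1 in 20 sets, so a few flags can arise by chance. Hoxd8 stood at 9.81 CPM in it and at 3.57 to 4.16 CPM in the others, Hoxb9 at 3.67 against 0.873 to 1.24 CPM, and Hoxd10 at 1.24 against 0.311 to 0.416 CPM. The same library had the highest keratinocyte marker sum of the adult group, 2242 CPM against 1010 to 1772 CPM, and whether that bears on these HOX values was not tested.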

How the results depend on the processing

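HOX genes higher in adult McSC than in melanoblasts numbered 12, and 8 to 16 under the 18 alternatives, with none lower in any. A stricter filter on low counts tested only 15 HOX genes, of which 10 were higher. Leaving out single libraries gave 8 (without adult replicate 3) to 15 (without melanoblast replicate 3). Over all genes, 11.3% and 23.3% were higher in these fits, against 15.1% in the main fit. For aged against adult McSC the count of 0 became 1, Hoxd11, with limma voom and 1 in the fit of only the 2 groups compared, and stayed at 0 without any single library. For aged McSC against melanoblasts the count of 11 became 22 with TMM factors from abundant genes, 19 with limma voom and 5 with only the 2 groups compared. Leaving out single libraries gave 4 (without aged replicate 1) to 17 (without melanoblast replicate 3). Without melanoblast replicate 3, 28.7% of all genes were higher. The cause of these moves was not tested. Where a group of 2 lost a library, the lone sample was assumed to vary like the other groups. A replicate block gave 10, 0 and 12 calls in the 3 comparisons. Same-numbered libraries did not deviate together (correlations of deviations from -0.08 to 0.202), so the block says nothing about pairs. No called value changed its sign. The highest HOX count in a melanoblast library was 104, which limits the precision of the differences from melanoblasts.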
